A study of Mus musculus with 4 samples.

Results

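The platelet-derived growth factor (PDGF) ligands and receptors were described here in the left ventricle of mice after myocardial infarction. The members were the 4 ligand genes Pdgfa, Pdgfb, Pdgfc and Pdgfd and the 2 receptor genes Pdgfra and Pdgfrb, all 6 of them among the 15062 tested genes. They were found by the gene name given to each non-control probe of the array, which yielded 12 probes of 41174, and 11 of these were tested among 28304 tested probes. A probe was tested if the 2 arrays of at least 1 genotype both measured it well above background.

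Total RNA was measured on 4 one-colour Agilent Whole Mouse Genome arrays with 60-base probes. WT 2 and WT 3 came from wild-type littermate mice, and KO 2 and KO 3 from KDM5B knockout mice. KDM5B is a demethylase of histone H3 lysine residues, and the knockout was a CRISPR/Cas9 deletion with a frameshift in the exons of its JmjC domain, carried in all tissues on a C57BL/6 background. All mice were labelled male, were between 8 and 10 weeks old and had the left anterior descending coronary artery tied off 7 days before harvest. There was no sham-operated array, so each comparison is between genotypes within infarcted hearts. The labels do not say whether a sample was 1 animal or a pool, and the p-values then measure only the spread between these samples, which may be technical.

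PDGFs are disulfide-linked dimers that bring receptor tyrosine kinases together in pairs. PDGF-A and PDGF-B are cut to their active form by proprotein convertases inside the cell, whereas PDGF-C and PDGF-D are secreted with a CUB domain that extracellular proteases must remove. PDGFRα binds the A, B and C chains and marks the resident fibroblasts of the heart, and PDGFRβ binds the B and D chains and is typical of pericytes and vascular smooth muscle cells. In the injured heart these receptors are known for their part in scar formation and in the coating of new vessels.

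For 5 of the 6 genes more than 1 probe was present, so that a difference could be read at separate places of a transcript. In Pdgfra the 2 probes lay 34275 bases apart in the genome, and in Pdgfd the 2 probes gave average differences of opposite sign. The probes nearer the 5′ end of Pdgfra, Pdgfa and Pdgfd are shown for this reason, as sense-strand sequence written 5′ to 3′ from the array files, with no base singled out by capitals. All 3 lie in coding sequence, and each holds a reading frame free of stop codons. The Pdgfra probe falls in the extracellular part of the receptor, on the plus strand at chr5:75559613-75559672 of build mm9, from base 281 of its target transcript. The Pdgfa probe is on the minus strand at chr5:139455132-139455191, from base 670, and the Pdgfd probe on the plus strand at chr9:6376926-6376985, from base 1201, both in the growth factor domain.
Pdgfra: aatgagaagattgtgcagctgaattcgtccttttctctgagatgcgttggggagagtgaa
Pdgfa: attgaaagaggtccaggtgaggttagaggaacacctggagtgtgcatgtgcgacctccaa
Pdgfd: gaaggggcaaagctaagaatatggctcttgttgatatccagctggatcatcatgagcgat

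Levels below are log2 processed signals minus the log2 75th percentile of the same array, so that 0 is the level of that percentile, and levels of different probes are not set against each other. The share of probes well above background ran from 68.15% to 72.04% over the arrays. The WT arrays lay at the first 2 positions of the slide and the KO arrays at the next 2, so slide position and genotype cannot be told apart. Kdm5b, the deleted gene, had KO minus WT differences of -0.996 and -1.19 at its 2 probes, without passing the test. These were -1.53 and -1.92 at number 2 but -0.46 at both probes at number 3. Neither KO array measured a Kdm5b probe as dim as background. The log2 levels at 1 probe put WT 2 at -0.87, WT 3 at -1.81, KO 2 at -2.40 and KO 3 at -2.26. At the other probe they were -2.43, -3.40, -4.35 and -3.86 in the same order. The check of the label was thus weaker at number 3, where WT 3 was itself lower than WT 2. Xist, the RNA of the inactive X chromosome, was well above background only on WT 2 and KO 2, and the Y-linked Ddx3y and Eif2s3y only on WT 3 and KO 3, which goes against the male label of WT 2 and KO 2. Differences of the members and of the named pathway genes are therefore also given within number 2 and within number 3. The latter leaves out both doubted arrays, and a difference within a number rests on 1 array per genotype and has no test.

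No member passed the test between genotypes. The limma test with Benjamini-Hochberg adjustment called 0 of the 11 member probes at adjusted p values under 0.05 with a fold over 2, beside 0 of 28304 tested probes (0%). At an unadjusted p under 0.05 there were 0 member probes, beside 410 probes in all (1.45%). Under other settings 2 members did so. Pdgfra had an unadjusted p of 0.0414 with the array number as a block, and without KO 3 the unadjusted p was 0.0220 for Pdgfra and 0.0118 for Pdgfc, where 7278 probes passed. In the limma test without these other settings, the adjusted p of every member was 0.9999. An exact permutation test of 2 arrays against 2 cannot give a two-sided p below 0.333.

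Pdgfra, the receptor that marks cardiac fibroblasts, showed the widest gap between genotypes among the members. Its brighter probe, on the plus strand at chr5:75593888-75593947, gave processed signals that put WT 2 at 3891, WT 3 at 5818, KO 2 at 1445 and KO 3 at 3337. The corresponding log2 levels were 2.15, 2.58, 1.25 and 1.91. Neither KO array reached either WT array. The mean was 2.36 ± 0.30 for WT and 1.58 ± 0.47 for KO (SD, n = 2 each), a difference of -0.78 (standard error, SE, 0.35), or a ratio of 0.582. The 95% confidence interval ran from -1.78 to 0.22 and so took in 0. The absolute difference was larger than that of 93.7% of tested probes. Such a separation, with KO lower, was found for 10.9% of all tested probes, and for 2 of the 11 member probes, which were the 2 probes of Pdgfra.

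The probe near the 5′ end of Pdgfra gave nearly the same difference as the brighter one. The log2 levels placed WT 2 at -3.40, WT 3 at -3.002, KO 2 at -4.22 and KO 3 at -3.65. The groups again did not overlap, and the difference was -0.73 (SE 0.32). Within the array numbers, the brighter probe differed by -0.90 at number 2 and -0.66 at number 3. The 5′ probe differed by -0.82 and -0.65. The 2 probes read the same 4 RNA samples and are not independent samples of a genotype.

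Pdgfra also carried a measure of the error between spots of 1 array, since the brighter probe was printed in 10 spots on each array. The standard deviation over these spots was between 0.032 and 0.056 on the log2 scale, with 9 spots used on WT 3 and 10 on each of the others. The lowest WT spot stood at 2.01 and the highest KO spot at 1.97, so no KO spot reached any WT spot. The spread between the 2 arrays of a genotype, at 0.42 in WT and 0.66 in KO, was far wider than the spread between spots.

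**Figure D1:**
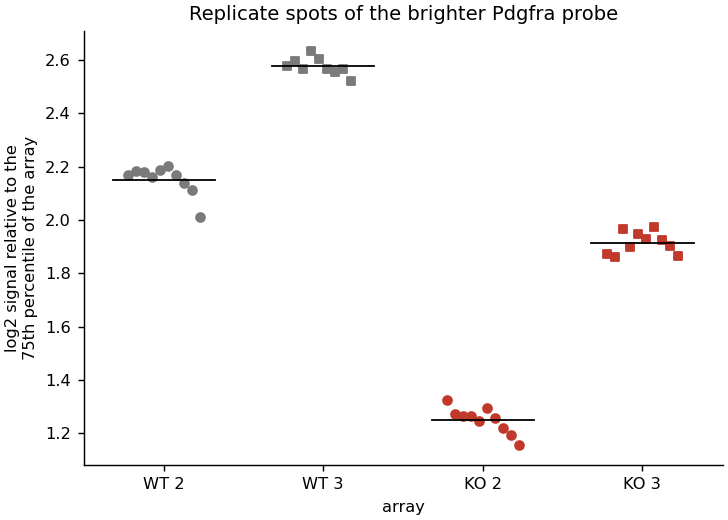
Log2 signal of the brighter Pdgfra probe relative to the 75th percentile of each array (vertical axis) for each replicate spot on the 4 arrays (horizontal axis). Grey points are WT, red points KO, circles number 2, squares number 3, and the bars are means per array. Spots of 1 array stay within a narrow band, the arrays are well apart, and both KO bands lie below both WT bands.

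Pdgfrb, the receptor of pericytes and vascular smooth muscle cells, was read by 1 probe, on chromosome 18. The log2 levels placed WT 2 at 3.76, WT 3 at 4.43, KO 2 at 3.13 and KO 3 at 4.35. KO 2 was the lowest array, but KO 3 lay close to WT 3 and above WT 2, so the groups overlapped. The difference was -0.36 (SE 0.55), and its 95% confidence interval ran from -1.92 to 1.21. The difference was -0.63 at number 2 and -0.084 at number 3. Without KO 2 the difference turned to 0.25.

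Of the ligands, Pdgfb was the one whose groups did not overlap. PDGF-B is released by endothelial cells and platelets and recruits pericytes to vessels. Its brighter probe, on the minus strand at chr15:79826327-79826386, had log2 levels that put WT 2 at -0.77, WT 3 at -0.80, KO 2 at -0.24 and KO 3 at -0.57. The KO arrays were both higher than the WT arrays, as for 13.1% of all tested probes and for 1 of the 11 member probes. The difference was 0.38 (SE 0.24), or a ratio of 1.30, and its 95% confidence interval ran from -0.29 to 1.05. It was 0.53 at number 2 and 0.23 at number 3. The second Pdgfb probe, 811 bases away, had levels between -2.27 and -2.01 and a difference of 0.11, or 0.20 at number 2 and 0.027 at number 3. There KO 3 lay between the WT arrays, so the separation at the brighter probe was not shared by the second.

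Pdgfc, which encodes a ligand of PDGFRα, varied most between arrays of all members. The brighter probe, on the plus strand at chr3:81017572-81017631, had log2 levels that put WT 2 at -0.03, WT 3 at 0.48, KO 2 at -1.26 and KO 3 at 0.996. The KO arrays were thus the lowest and the highest of the 4. This range of 2.26 was wider than that of 91.7% of tested probes. The average difference of -0.36 (SE 0.87) joined a difference of -1.23 at number 2 and one of 0.51 at number 3. Without KO 2 the difference was 0.77. The second probe followed the first, with -1.16 and 0.37, and the other probe was not well above background on any array and was not tested. At number 2, KO 2 lay below WT 2 by a fold over 2 for 8.84% of tested probes and for 2 of the 11 member probes, both of Pdgfc, and KO 2 lay above by as much for 6.19% and for no member probe. At number 3 no member probe differed by a fold over 2, beside 1.78% of tested probes lower in KO 3 and 2.23% higher.

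Pdgfa, a ligand of PDGFRα alone, differed little between genotypes. Its brighter probe, on the minus strand at chr5:139453029-139453088, had log2 levels that put WT 2 at 4.09, WT 3 at 4.10, KO 2 at 3.93 and KO 3 at 4.41. The WT arrays sat between the KO arrays. The difference was 0.074 (SE 0.27), with a 95% confidence interval from -0.68 to 0.83, and its sign turned to -0.059 with quantile normalization and to -0.16 without KO 3. Within the numbers it was -0.16 and 0.30. The probe in the growth factor domain shown above had levels of 0.83, 0.72, 0.65 and 1.151 in the same order of arrays and differences of -0.19 and 0.43, again with the WT arrays between the KO arrays.

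Pdgfd, a ligand of PDGFRβ, had, by its brighter probe, the smallest spread over the 4 arrays among the ligands. Its brighter probe, on the plus strand at chr9:6378717-6378776, had log2 levels that put WT 2 at 0.33, WT 3 at 0.60, KO 2 at 0.37 and KO 3 at 0.26. The range of 0.34 was wider than that of 18.7% of tested probes. The difference was -0.15 (SE 0.23), with a 95% confidence interval from -0.80 to 0.50, and it was 0.043 at number 2 and -0.34 at number 3. The coding probe shown above had a difference of 0.13 with the same SE of 0.23, so neither direction stood out from the spread between arrays.

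**Figure D2:**
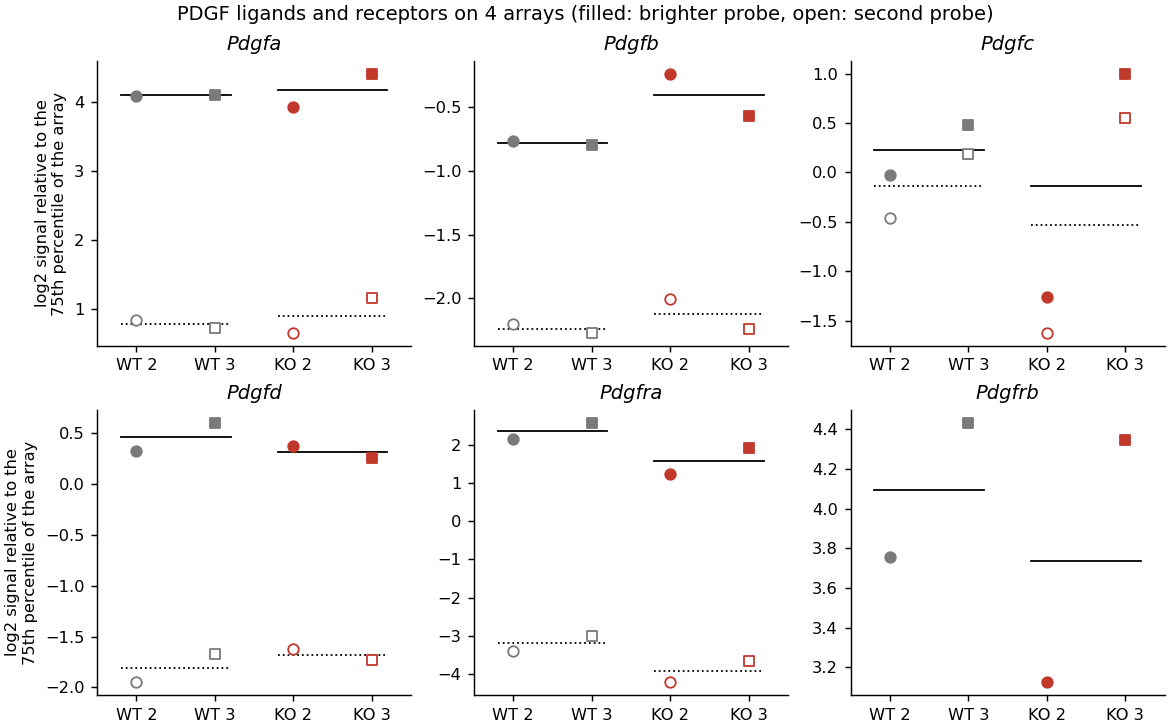
Log2 signal relative to the 75th percentile of each array (vertical axis, with its own scale in each panel) on WT 2, WT 3, KO 2 and KO 3 for the tested probes of the 6 genes. Filled points are the brighter probe and open points the second, grey is WT, red is KO, and solid and dotted bars are group means of the brighter and second probe. Both Pdgfra probes are lower on both KO arrays than on both WT arrays, whereas the Pdgfc points of KO 2 and KO 3 are the extremes of their panel.

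Across the members, 6 of the 11 probes were lower in KO on average, beside 47.7% of all tested probes, and by 1 probe per gene 4 of the 6 genes were, beside 44.9% of genes. The differences at numbers 2 and 3 had opposite signs for 6 of the 11 member probes, beside 53.4% of all tested probes. No member probe differed by a fold over 2 between genotypes in either direction, beside 2.35% of tested probes lower in KO and 1% higher. As a group the members thus stayed near the background shares.

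Some cell type marker lists ran near the receptors across the arrays and others did not. The mural, endothelial and cardiomyocyte lists were highest on KO 2, where both receptors were lowest. In the RNA of a whole ventricle, fewer cells of a type and less RNA per cell cannot be told apart. Of 12 fibroblast markers, all tested, 11 were lower in KO on average and 0 passed the test, with a median difference of -0.41 beside 0.036 over all 15062 tested genes. The summed fibroblast marker level, as a multiple of the 75th percentile signal, placed WT 2 at 1369, WT 3 at 1229, KO 2 at 932 and KO 3 at 1276. The median fibroblast marker difference was -0.79 at number 2 and -0.12 at number 3. The members' values relative to this list were computed after its values were seen.

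Relative to the mean log2 level of the fibroblast markers on the same array, Pdgfra had levels that put WT 2 at -3.10, WT 3 at -2.86, KO 2 at -3.34 and KO 3 at -3.35. The KO arrays were below the WT arrays, as for 1.86% of 15062 genes on this scale, and the difference was -0.36, or -0.23 at number 2 and -0.49 at number 3. The median gene had a difference of 0.45 on this scale, since the fibroblast mean was itself lower in KO. On the same footing, Pdgfrb had a difference of 0.061 and its groups overlapped. Pdgfa and Pdgfb had differences of 0.49 and 0.79 and were higher on both KO arrays, as were 36.7% of genes. Relative to the macrophage markers none of the members had groups without overlap. Over all genes the KO arrays were higher without overlap for 3.27% and lower for 3.5% on that scale. There Pdgfra had levels that put WT 2 at -0.41, WT 3 at -0.41, KO 2 at -0.37 and KO 3 at -1.40, so that KO 2 was above both WT arrays. The part of fibroblast content in these differences was not tested.

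Within the fibroblast list, Pdgfra ran closest to Dpt, which encodes the matrix protein dermatopontin. Closeness was measured as the root mean square difference between the centred log2 levels of 2 genes over the 4 arrays, for which 0 is an identical pattern. From the nearest to the farthest of the 12 markers, it was 0.12 for Dpt, 0.16 for the proteoglycan Lum, 0.19 for Mfap5, 0.24 for the collagen receptor Ddr2, 0.30 for Tcf21, 0.32 for Col1a1, 0.35 for Col1a2, 0.38 for Postn, 0.46 for Col3a1, 0.46 for Thy1, 0.47 for the proteoglycan Dcn and 0.65 for Gsn. Dpt had differences of -1.08 at number 2 and -0.88 at number 3, and Tcf21, a transcription factor of resident cardiac fibroblasts, -0.82 and -0.79. Lum differed by -1.09 and -0.29, and Mfap5 by -1.01 and -0.18. Of the 12 markers, 5 were lower at number 2 and higher at number 3, among them Col1a1 with -1.21 and 0.17 and Postn with -1.27 and 0.28, and 1, Gsn, went the other way with 0.52 and -0.75. The markers were thus not of 1 pattern, and these examples were picked after their values were seen.

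Of the marker lists, the macrophage list was nearest to Pdgfc and Pdgfrb over the arrays. Their summed level placed WT 2 at 314, WT 3 at 351, KO 2 at 184 and KO 3 at 401. The root mean square difference from the mean of the 11 macrophage markers was 0.20 for Pdgfc and 0.19 for Pdgfrb, and for Pdgfc the next list, smooth muscle, was at 0.52. For Pdgfrb the fibroblast list at 0.26 and the smooth muscle list at 0.28 were almost as near. Relative to the macrophage mean, Pdgfc had levels that put WT 2 at -2.59, WT 3 at -2.50, KO 2 at -2.88 and KO 3 at -2.32. These spanned less than its levels before, which follows from the nearness of this list and is no further result. On that scale the difference was -0.29 at number 2 and 0.18 at number 3. The part of macrophage content in the Pdgfc values was not tested.

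Pdgfb and Pdgfd were nearest to the mural and endothelial lists. The root mean square difference for Pdgfb was 0.18 from the mural and 0.19 from the endothelial mean, and for Pdgfd 0.23 and 0.24. By this measure a gene that varies little is near any list that varies little, so nearness alone does not show a shared pattern. By its brighter probe, Pdgfd was lowest on KO 3, as both lists were, but highest on WT 3 at 0.60, whereas both lists were highest on KO 2. Its second probe differed from this, being lowest on WT 2 at -1.95 and highest on KO 2 at -1.63. The summed endothelial level placed WT 2 at 74.3, WT 3 at 76.2, KO 2 at 110 and KO 3 at 64.5. It was thus highest on KO 2, as Pdgfb was, but lowest on KO 3, where the brighter Pdgfb probe stood above both WT arrays. The mural level ran from 61.4 on KO 3 to 83.4 on KO 2. Pdgfrb, although a mural gene, was at 0.73 from the mural list. The summed cardiomyocyte level placed WT 2 at 1931, WT 3 at 1153, KO 2 at 3290 and KO 3 at 914, and no member came closer to that list than 0.85. Summed smooth muscle levels were between 48.8 on KO 2 and 289 on KO 3, and those of megakaryocytes and platelets between 18.2 on KO 2 and 32.2 on KO 3. All tested markers were well above background on every array in these lists, except 1 of the 9 megakaryocyte and platelet markers on each of 3 arrays.

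**Figure D3:**
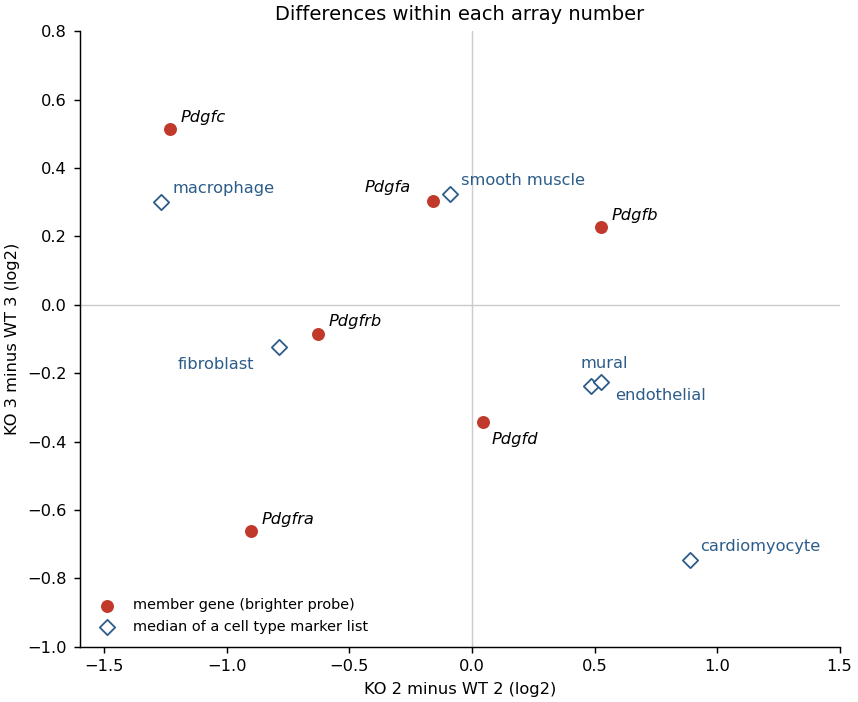
Log2 difference between KO 2 and WT 2 (horizontal axis) and between KO 3 and WT 3 (vertical axis) for the 6 genes, each by its brighter probe (red circles), and for the medians of 6 cell type marker lists (blue diamonds). Pdgfra is the member below 0 by over 0.6 on both axes, Pdgfb is above 0 on both, and Pdgfc lies near the macrophage markers.

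The genes around the receptors and ligands were read from 5 lists of 72 genes, of which 71 were tested. Of these, 34 were higher and 37 lower in KO on average, and 0 passed the limma test at an adjusted p under 0.05 or an unadjusted p under 0.05, beside 1.43% of genes at the latter. The median difference was -0.015, beside 0.036 over all genes. Without overlap between genotypes, 8 of the 71 genes had higher KO arrays, beside 13.3% of all genes, and 9 had lower KO arrays, beside 8.9%. Up to 3 genes per list whose groups did not overlap are named below.

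The ligand processing list holds the proteases that activate PDGFs, their inhibitors and Plaur, the gene of a protease receptor. Of its 10 tested genes 8 were lower in KO, beside 44.9% of all genes, with a median of -0.24. In 4 of them the KO arrays were lower without overlap, beside 8.9% of all genes. St14, the gene of matriptase, which can cleave PDGF-D, had levels of -1.06, -0.94, -2.99 and -1.10 on WT 2, WT 3, KO 2 and KO 3, and a difference of -1.04 (SE 0.72). Most of this lay in KO 2, and its differences were -1.93 at number 2 and -0.16 at number 3. Pcsk5 and Pcsk6, proprotein convertases, had differences of -0.64 and -0.49. They were -0.77 at number 2 and -0.51 at number 3 for Pcsk5, and -0.36 and -0.62 for Pcsk6. The fourth gene was Plat, which encodes the tissue plasminogen activator that cleaves PDGF-C, with a difference of -0.35, or -0.53 at number 2 and -0.17 at number 3, and levels of 2.73, 2.36, 2.20 and 2.19. Furin, the convertase best known for PDGF-A and PDGF-B, had a difference of 0.27, or 0.097 and 0.44 at the numbers, and its groups overlapped. Plat and Furin were named after their values were seen. Plg was not tested.

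Among 7 genes of ligand binding and co-receptors, 3 were higher and 4 lower, beside 44.9% of all genes lower. Nrp1, a co-receptor of several growth factors, was the gene whose groups did not overlap. Its KO arrays were higher, as for 13.3% of all genes, with a difference of 0.29, or 0.55 at number 2 and 0.028 at number 3. The values of this list ran from -0.97 for the receptor-like gene Pdgfrl to 1.78 for A2m, the gene of a plasma protein that binds PDGF, both with overlapping groups. Pdgfrl differed by -1.94 at number 2 and -0.012 at number 3. A2m had levels that put WT 2 at -4.43, WT 3 at -7.22, KO 2 at -2.72 and KO 3 at -5.37. It was well above background on 3 of the 4 arrays, and the sizes of its differences rest in part on dim values. It too was named after its values were seen.

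Among 30 receptor effectors, 18 were higher and 12 lower, beside 44.9% of all genes lower, with a median of 0.030. Without overlap, KO was higher for 5 of them, beside 13.3% of all genes, and lower for 1, beside 8.9%. Akt1, a kinase downstream of phosphatidylinositol 3-kinase, had levels of 4.38, 4.30, 5.19 and 4.55 on WT 2, WT 3, KO 2 and KO 3, and a difference of 0.53 (SE 0.31), or 0.81 at number 2 and 0.25 at number 3. Stat3, a transcription factor, had a difference of 0.33, or 0.42 and 0.23. Sos1, an exchange factor for Ras, had one of 0.20, or 0.26 and 0.14.

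Of 17 attenuators of receptor signalling, 7 were higher and 10 lower, beside 44.9% of all genes lower, with a median of -0.015. The KO arrays were higher without overlap for 2 of them, beside 13.3% of all genes, and lower for 2, beside 8.9%. Socs3, a feedback inhibitor of cytokine receptors, and Acp1, a low molecular weight phosphatase, had differences of 0.28 each, and Spred1, an inhibitor of the Ras pathway, one of -0.28. At numbers 2 and 3 they were 0.19 and 0.37 for Socs3, 0.090 and 0.46 for Acp1, and -0.46 and -0.094 for Spred1. In the 7 related receptors and ligands, 4 were higher and 3 lower, beside 44.9% of all genes lower, with a median of 0.097. Flt3l, which encodes the ligand of the receptor tyrosine kinase Flt3, had levels of 1.30, 1.65, 0.98 and 0.81. Its difference was -0.58, or -0.32 at number 2 and -0.83 at number 3. Flt3 itself, at low levels between -4.82 and -4.21, had a difference of -0.42, or -0.60 and -0.24. For both, the KO arrays lay below the WT arrays, as for 8.9% of all genes. The macrophage marker Csf1r, also on this list, had overlapping groups and a difference of -0.43, or -0.90 and 0.046.

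**Figure D4:**
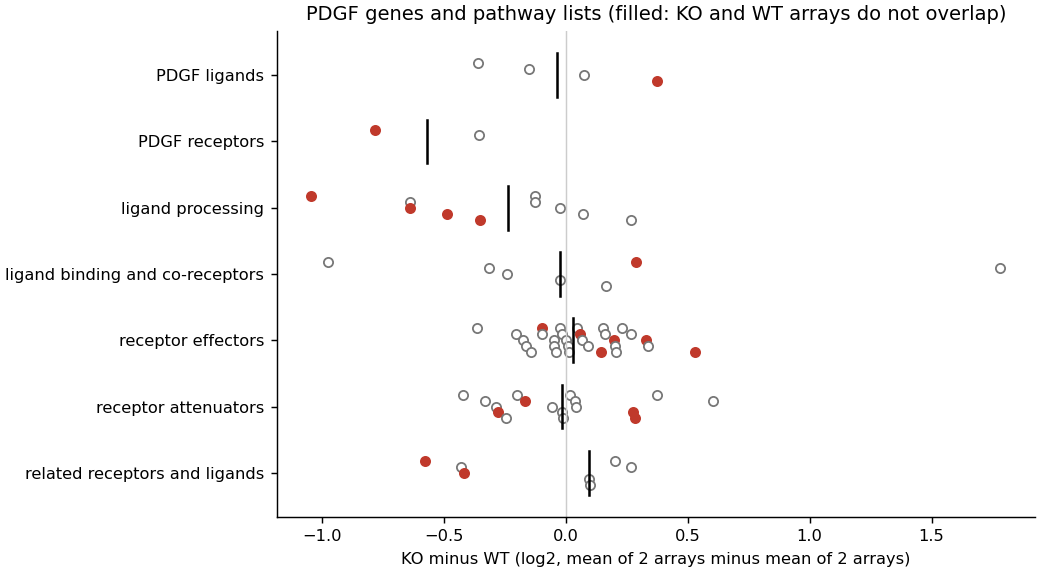
KO minus WT difference on the log2 scale (horizontal axis) of each tested gene, 1 probe per gene, in the ligands, the receptors and the 5 pathway lists (vertical axis). Red points are genes whose KO and WT arrays do not overlap, white points the other genes, and black bars the list medians, which lie between -0.24 and 0.097 for the 5 pathway lists.

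The genes most like each member over the 4 arrays were sought among 14394 genes well above background on all of them. Nearest to Pdgfra were Purg at a root mean square difference of 0.024, Clec2d at 0.029 and Zfp94 at 0.049, and 18 genes lay within 0.1. Pdgfrb had 74 genes within 0.1, led by Mylip, Wfdc21 and Gspt2, and Pdgfc had 40. Flat patterns had many more such neighbours. There were 952 for Pdgfa, led by Slc23a2, Msh6 and Sec13, then 479 for Pdgfb, led by Gm14325, Zfp971 and Fgd4, and 445 for Pdgfd, led by Pcsk7, Myl6b and Zfp692. With 4 arrays, such a likeness is a description of these samples.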

How the data were processed

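The authors extracted total RNA, hybridised it to one-colour Agilent Whole Mouse Genome arrays and deposited scanner output of Feature Extraction 10.7.3.1 per the file headers, annotated on build mm9. The deposited intensity used was the processed signal, which per the file headers was background-subtracted and spatially detrended. A second table, of log2 values, was made by the authors with GeneSpring. Its normalization is not given in the sources used here, but 99.9% to 99.96% of 41168 values per array were at most 0.01 from log2 processed signals after quantile normalization (column medians 6.78), so it is uncentred log2 in the direction of the signal. It served as an alternative.

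Outlier spots (92 to 116 per array of 43379) were left out, spots of a probe averaged on the log2 scale, and the 75th percentile of each array subtracted. Groups and numbers came from the sample titles. Tests used limma 3.58.1 (lmFit, eBayes) in R 4.3.3 over 28304 probes with Benjamini-Hochberg adjustment, called at 0.05 and a fold over 2. The code of the test was tested on simulated data with low noise, which says nothing of its power in these arrays. The brightest tested probe stood for a gene. Of the probes, 31437 matched a current symbol, 2200 an older symbol and 91 an accession, and 7446 kept the name in the files.

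Named genes were all members, Kdm5b, at most 3 genes per pathway list with the largest absolute difference among those whose groups did not overlap, and the 3 nearest genes per member (those of Pdgfc are not reported here), with exceptions named as such. The marker genes Ndufa4l2 and Tubb1 had no matched probe. The members and lists were chosen with earlier results of these data known. Alternatives were other background, scaling, filter, probe and test choices, the authors' table, the array number as a block and leaving out each array. The number of arrays limits the precision.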

Additional observations from a re-analysis of the deposited data

Results flagged for a closer look

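For 3 ligands the brighter probe differed between KO and WT one way at number 2 and the other way at number 3. Pdgfa differed by -0.16 at number 2 and 0.30 at number 3, Pdgfc by -1.23 and 0.51, and Pdgfd by 0.043 and -0.34. With 1 array per genotype at each number, the contrast between the numbers was not tested, and opposite signs occurred for 53.4% of all tested probes. The numbers also differed in Xist and Y-linked signal, which cannot be told apart from the number. The second tested probe shared these directions for all 3 genes, at -0.19 and 0.43 for Pdgfa, -1.16 and 0.37 for Pdgfc, and 0.32 and -0.058 for Pdgfd.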

How the results depend on the processing

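The limma test called 0 probes in every setting run. The number of probes at an unadjusted p under 0.05 was 410, but 1161 with normexp background correction, 723 without a filter, 125 without WT 2, 165 without WT 3, 1695 without KO 2 and 7278 without KO 3. The methods' t-test gave 88 probes at an unadjusted p under 0.05 and a fold over 2, 879 at that p alone and 0 after Benjamini-Hochberg adjustment. With all 4 arrays, 5 settings could move a member difference. Of the 29 values they gave, 2 turned sign, both for Pdgfa, at -0.059 with quantile normalization and -0.059 in the authors' table. The authors' table was close to the quantile-normalized signals, so these 2 are nearly the same result. Pdgfra ranged from -0.84 to -0.75 and Pdgfb from 0.24 to 0.40. Normexp background correction moved the median of all probes to 0.13. Relative to it, Pdgfra stood at -0.92, Pdgfrb at -0.50, Pdgfc at -0.45, Pdgfd at -0.24, Pdgfa at -0.078 and Pdgfb at 0.21, so that Pdgfa was on the other side of the median there.

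Leaving out 1 array at a time gave 24 member values, of which 3 turned sign. The ranges were -0.16 to 0.31 for Pdgfa, 0.21 to 0.54 for Pdgfb, -1.49 to 0.77 for Pdgfc, -0.28 to -0.015 for Pdgfd, -1.11 to -0.45 for Pdgfra and -0.97 to 0.25 for Pdgfrb. These came without KO 3 for Pdgfa and without KO 2 for Pdgfc and Pdgfrb. The lone array of a group was there taken to vary as the arrays of the other group did. The sign of Pdgfra and Pdgfb could not turn, because their groups did not overlap. Relative to the fibroblast markers, an alternative chosen after seeing the data, Pdgfc was at 0.058, Pdgfd at 0.27 and Pdgfrb at 0.061, each with the sign turned, and relative to the macrophage markers Pdgfd was at 0.16. These scales subtract the same marker mean from every gene, so all differences shift alike. The median gene stood at 0.45 on the fibroblast scale and 0.34 on the macrophage scale, and each turned value lay below it. The cause of the lower marker means in KO was not tested.

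Arrays of the same number deviated together (correlation 0.57), but with 2 pairs and no label that ties them the numbers were not taken as pairs. The number also went with the Xist and Y-linked signal, and the 2 cannot be told apart. With the array number as a replicate block, which cannot move a difference in this balanced design (-0.78 for Pdgfra), 0 probes were called and 602 had an unadjusted p under 0.05. Pdgfra was among them, with an unadjusted p of 0.0414 and an adjusted p of 0.995 by limma. Slide and scan could not be used as a block, since there was 1 of each, and the mean over probes had no value for Pdgfrb, which had 1 probe.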
